A study of Mus musculus with 8 samples.

Results

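Haematopoietic stem cells labelled null for Scribble, Yap1 and Taz together were set against cells labelled null for Yap1 and Taz alone, which asks what loss of Scribble adds where both co-activators are already gone. Transcripts were measured by RNA sequencing in 2 libraries of each group. Genes with at least 1 TPM (a length-corrected share of each library's transcripts) in at least 2 of these 4 libraries were tested, which gave 15058 of 33641 gene symbols. The 12464 genes described here are those that lie on an autosome and have a name, with symbols of the form Gm plus digits or with -ps set aside. All mice were C57BL/6 and carried Mx1-Cre, a recombinase driven by an interferon-responsive promoter and active in interferon-responsive cells of many kinds, so deletion was not limited to stem cells. All received 6 intraperitoneal injections of polyI:C, an inducer of interferon, at 10 mg/kg every other day, and the cells were taken 1 week after induction. The groups were Scribble-/-;Taz-/-;Yap1-/- (triple null), Taz-/-;Yap1-/- (Yap1 Taz null), Scribble-/- (Scribble null) and wild type, which also carried Mx1-Cre and received polyI:C, each with 2 libraries of cells sorted from bone marrow. The labels give no age or sex and do not say that the libraries of a group came from separate animals, so p-values measure only the spread between libraries.

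Scribble is a cytoplasmic scaffold that, with the Discs large and Lethal giant larvae proteins, marks the basolateral side of polarised cells. Yap1 and TAZ, the product of Wwtr1, are transcriptional co-activators that bind TEAD factors, and the Hippo kinases Mst and Lats hold them in the cytoplasm by phosphorylation. In epithelia Scribble helps to assemble the Hippo kinases with their substrates, so its loss can free Yap1 and TAZ.

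The levels of the targeted genes did not check the labels. Scrib (mm10 chromosome 15, 76047158 to 76069784) had 14.5 and 7.54 TPM where the label was triple null, against 7.98 and 7.32 TPM where it was Yap1 Taz null, 6.25 and 7.63 TPM in Scribble null and 8.19 and 9.29 TPM in wild type. Yap1 had 2.25 and 2.37 TPM in triple null, 2.13 and 6.63 TPM in Yap1 Taz null, 5.83 and 2.45 TPM in Scribble null and 2.00 and 2.15 TPM in wild type. Wwtr1 had 1.92 and 0.775 TPM in triple null, 1.09 and 1.15 TPM in Yap1 Taz null, 5.32 and 3.91 TPM in Scribble null and 0.730 and 1.19 TPM in wild type. None of the 3 genes was lower in both libraries of every group whose label names its loss, and a whole-gene value cannot show the loss of single exons. "Triple null" and "Yap1 Taz null" therefore mean the libraries so labelled throughout.

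Both groups held Slamf1 and little Cd48, markers by which such stem cells are told, and each stood apart in 1 other respect. Slamf1, which encodes the SLAM receptor CD150, was at 76.2 and 72.9 TPM in triple null and 60.8 and 68.3 TPM in Yap1 Taz null cells. Cd48, absent from the surface of these cells, was at most 2.67 TPM in these 4 libraries, the T cell gene Cd3e at most 0.553 TPM, the granulocyte gene Mpo at most 1.01 TPM and S100a8 at 0. Not all markers of other cells were low. The monocyte and macrophage gene Lyz2 was at 292 and 238 TPM in triple null, 213 and 176 TPM in Yap1 Taz null and 212 and 256 TPM in wild type. The replicate libraries correlated at 0.964 in triple null and 0.955 in Yap1 Taz null (Pearson's r of log2 values across genes), while the closest library of another group lay at 0.952 to 0.958, so libraries of different genotypes were about as alike as replicates. Y-linked genes were low in Yap1 Taz null cells. Eif2s3y was at 62.1 and 61.0 TPM in triple null, against 4.16 and 4.63 TPM in Yap1 Taz null cells, and Kdm5d was at 49.99 and 48.3 TPM in triple null, against 5.25 and 7.31 TPM in Yap1 Taz null cells. Uty was at 29.9 and 29.6 TPM in triple null and 10.6 and 20.02 TPM in Yap1 Taz null cells, a difference that did not pass (adjusted p = 0.315). The other groups were not low, with Eif2s3y at 56.5 and 64.1 TPM in Scribble null and 45.8 and 56.1 TPM in wild type. A difference of sex between the animals and the labelled loss of Scribble therefore cannot be told apart in the comparison of triple null with Yap1 Taz null.

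Immunoglobulin transcripts were high in the triple null libraries, and each of these 2 libraries held its own set. The 393 immunoglobulin gene segments in the files, a group chosen after their values were seen, summed to 1200.0 and 3723 TPM in triple null, against 170.3 and 129.0 TPM in Yap1 Taz null, and to between 53.8 and 148 TPM in the other 4 libraries. Triple null replicate 2 held mainly Igkc at 879 TPM, Igha at 558 TPM and Ighv9-4 at 476 TPM. Triple null replicate 1 held mainly Ighm at 234 TPM, Iglv2 at 204 TPM and Iglc2 at 187 TPM. Ighm and Iglc2 stood at only 8.75 and 7.58 TPM in replicate 2, and Igkc and Igha at only 55.6 and 53.8 TPM in replicate 1. Jchain, whose product joins secreted IgA and IgM, was at 8.004 and 54.7 TPM in triple null and at 1.41 and 1.39 TPM in Yap1 Taz null cells. The early B cell genes Cd79a and Ebf1 were each under 1 TPM in both triple null libraries, and so were Sdc1, Mzb1 and Tnfrsf17, which mark plasma cells. Cd79a was higher in Yap1 Taz null cells, at 2.55 and 1.21 TPM, a difference that did not pass (adjusted p = 0.432). Xbp1, a transcription factor of secretory cells, was at 64.1 and 61.9 TPM in triple null and 36.7 and 35.5 TPM in Yap1 Taz null cells (adjusted p = 0.367). The 28 B lineage genes listed include Igkc, Ighm, Iglc2 and Jchain, already described, so their sum is not a separate result. That sum was 561 and 1011 TPM in triple null and 65.6 and 84.5 TPM in Yap1 Taz null. Blk was at 0 in all 8 libraries, and the part of B lineage RNA in other results was not tested. No immunoglobulin gene was called with both libraries in the fit.

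**Figure D1:**
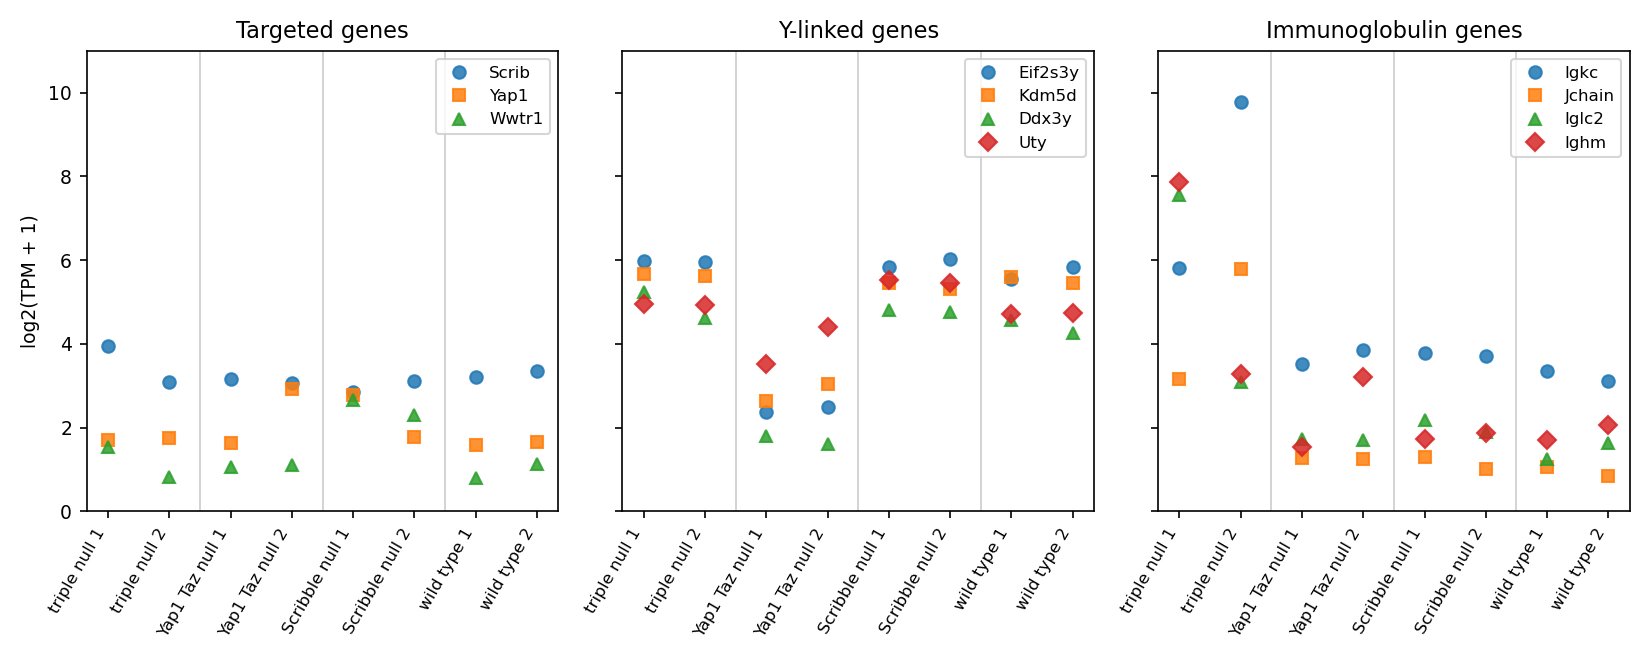
Level of the targeted genes, 4 Y-linked genes and 4 immunoglobulin genes in each library, as log2(TPM + 1), 1 point per gene and library. The Y-linked Eif2s3y lies at 62.1 and 61.0 TPM in triple null and at 4.16 and 4.63 TPM in Yap1 Taz null, while the immunoglobulin genes are high in triple null with a different set in each of its 2 libraries.

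Few genes separated the triple null from the Yap1 Taz null. Differences were tested on the log2(TPM + 1) scale with limma and Benjamini-Hochberg adjustment over all 15058 genes, at an adjusted p under 0.05. Of all genes tested, 38 were called (0.252%), 13 higher (0.0863%) and 25 lower (0.166%). Among the 12464 named autosomal genes 20 were called (0.16%), 2 higher and 18 lower in triple null cells. Their libraries did not overlap between the groups in any of the 20, and 19 of the 20 code for protein. The other 18 calls were 3 Y-linked and 3 X-linked genes, 13 symbols with a Gm or -ps name, of which 2 are among the X-linked ones, and 1 without a chromosome. The median difference of all genes was −0.02, and the named genes lay between −0.66 and 0.61 from percentile 5 to percentile 95.

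The count rested on having all 8 libraries. It was 9 and 4 without triple null replicates 1 and 2, 1 and 2 without Yap1 Taz null replicates 1 and 2, 9 and 10 without Scribble null replicates 1 and 2, and 3 without either wild-type library. Without triple null replicate 1, 8 of the 9 calls were immunoglobulin or J chain genes and the last was Klk1b22. The differences of the 20 genes kept their direction in each of these 8 fits.

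Of the 18 genes that fell, 13 were higher in both Yap1 Taz null libraries than in all 6 others. Of the same 18, 11 were lower in both triple null libraries than in all 6 others. The 18 were chosen for lower values in triple null than in Yap1 Taz null, so these counts partly describe that choice. The share of all genes with either pattern was not counted. In Scribble null cells 11 of the 18 were above both wild-type libraries, 4 were below them and 3 overlapped, where 33.6% and 15.9% of all genes were above and below. In that comparison, which shares no library with the first, 3 of the 20 called genes were called too, where 1.37% of all genes were.

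**Figure D2:**
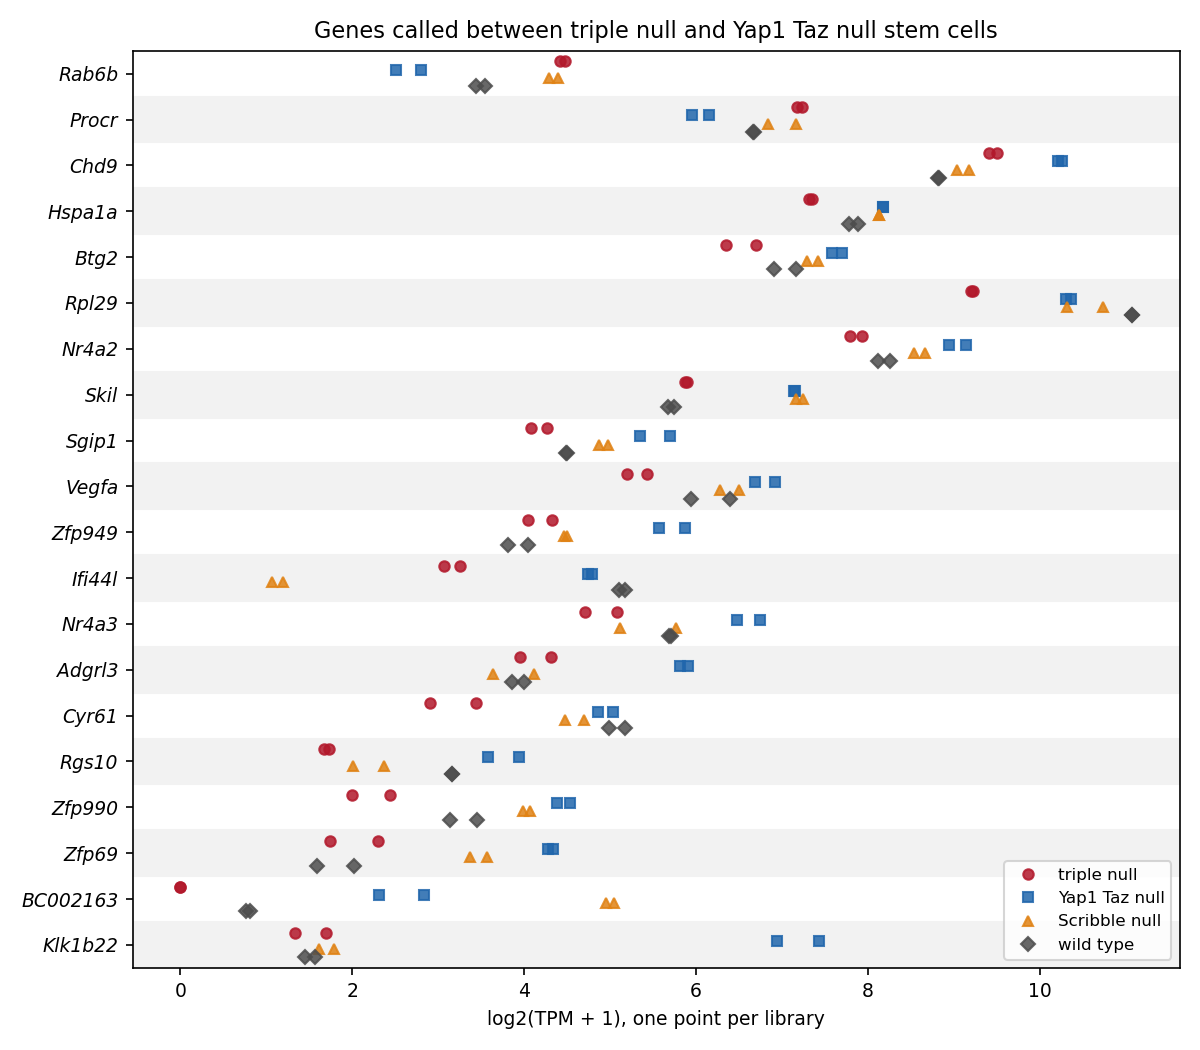
Level of the 20 called genes in each library, as log2(TPM + 1), with triple null, Yap1 Taz null, Scribble null and wild type drawn from top to bottom within each row. Rab6b and Procr are higher and the other 18 lower in triple null than in Yap1 Taz null, with no overlap of the 2 groups, and Klk1b22 is high only in Yap1 Taz null.

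Immediate early genes and their feedback regulators, which cells switch on within minutes of a stimulus, were the list with the most called genes. Of 41 measured members of this list, 4 fell (Skil, Nr4a2, Nr4a3 and Btg2) and none rose, where 0.166% and 0.0863% of all genes were called. Called or not, 29 of the 41 were lower in both triple null libraries than in both Yap1 Taz null libraries and 4 were higher, where 21.6% and 19.1% of all genes were. At an unadjusted p under 0.05, 20 were lower and 1 higher, where 4.85% and 4.04% of all genes were. The list's median was −0.37, against −0.02 for all genes, and lay between −0.41 and −0.33 in the other 17 settings tried.

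Skil (chromosome 3, 31095058 to 31122577) encodes SnoN, a corepressor that binds SMAD proteins and dampens TGF-beta signalling. It was at 58.6 and 57.6 TPM in triple null cells, 141 and 139.6 TPM in Yap1 Taz null, 142 and 151 TPM in Scribble null and 50.1 and 52.5 TPM in wild type. The 2 triple null libraries lay close to wild type, and the 4 libraries of the other null groups lay far above both. The difference between triple null and Yap1 Taz null was −1.26 ± 0.13 (log2 ± SE, adjusted p = 0.0107), and that between Scribble null and wild type was 1.49 ± 0.13 (adjusted p = 0.00105). Skil was called in 12 of 17 other settings.

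Nr4a2 (chromosome 2, 57106830 to 57124003) and Nr4a3 (chromosome 4, 48045153 to 48086447) encode orphan nuclear receptors, and members of this family restrain the proliferation of blood stem cells in mice. Nr4a2 was at 221 and 242 TPM in triple null, 493 and 561 TPM in Yap1 Taz null, 404 and 371 TPM in Scribble null and 278 and 306 TPM in wild type. The triple null libraries were the lowest of the 8 and the Yap1 Taz null libraries the highest, with a log2 difference of −1.18 ± 0.12 (adjusted p = 0.013). Nr4a3 was at 32.8 and 25.1 TPM in triple null, 88.1 and 106 TPM in Yap1 Taz null, 33.6 and 53.4 TPM in Scribble null and 51.2 and 50.5 TPM in wild type. Here too the order held, with a log2 difference of −1.72 ± 0.24 (adjusted p = 0.048). Nr4a1, the third member of the family and named after its values were seen, was at 416 and 420.2 TPM in triple null and 639 and 661 TPM in Yap1 Taz null cells, a difference of −0.64 ± 0.11 that did not pass (adjusted p = 0.0926).

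Btg2 (chromosome 1, 134075170 to 134079120), an antiproliferative adaptor of the CCR4-NOT deadenylase, was at 103 and 80.7 TPM in triple null, 207 and 190.2 TPM in Yap1 Taz null, 156 and 170 TPM in Scribble null and 119 and 142 TPM in wild type. Its log2 difference was −1.12 ± 0.16 (adjusted p = 0.048), and of the 17 other settings 1 called it. Not all of the list lay lower. Fos was at 423 and 448 TPM in triple null and 449 and 445 TPM in Yap1 Taz null cells, Jun at 467 and 518 TPM in triple null and 475 and 510 TPM in Yap1 Taz null cells, and Dusp1, a phosphatase of MAP kinases, at 878 and 923 TPM in triple null and 854 and 957 TPM in Yap1 Taz null cells. These 3, picked after their values were seen because they are the best known of the list, overlapped between the groups.

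The promoters of the Nr4a genes and of Btg2 share a short element, TGACG, the core of the cyclic AMP response element bound by CREB and ATF factors. It was 1 of 11 motifs searched on both strands in the 250 bases before each start, with the values already known, and TGACG or its reverse complement CGTCA occurs in 17.9% of 27025 mouse promoters. Nr4a1, Nr4a2 and Nr4a3 each held 4 matches, as did or exceeded 0.152% of all promoters. The promoter of Btg2 held the whole palindrome TGACGTCA, found in 1.62% of promoters, which counts as a match of TGACG on each strand. The TEAD motif GGAATG, found in 12.6% of promoters, occurred 1 time each before Cyr61, described below, Nr4a1, Nr4a3 and Sgip1. The promoters of 3 genes are shown because they belong to called genes and hold these letters (RefSeq, GRCm38.p6, 5′ to 3′ on the gene's strand, here minus for all; chr2:57124004-57124253 for Nr4a2, chr1:134079156-134079405 for Btg2 and chr3:145649986-145650235 for Cyr61). Capitals mark TGACG or CGTCA in Nr4a2, TGACGTCA in Btg2 and the reverse complement of GGAATG in Cyr61.
Nr4a2: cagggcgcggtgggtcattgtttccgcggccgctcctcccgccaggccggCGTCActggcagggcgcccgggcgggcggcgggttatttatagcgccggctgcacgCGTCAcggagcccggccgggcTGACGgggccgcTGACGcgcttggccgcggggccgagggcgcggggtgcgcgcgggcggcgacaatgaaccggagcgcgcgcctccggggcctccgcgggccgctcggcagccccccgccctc
Btg2: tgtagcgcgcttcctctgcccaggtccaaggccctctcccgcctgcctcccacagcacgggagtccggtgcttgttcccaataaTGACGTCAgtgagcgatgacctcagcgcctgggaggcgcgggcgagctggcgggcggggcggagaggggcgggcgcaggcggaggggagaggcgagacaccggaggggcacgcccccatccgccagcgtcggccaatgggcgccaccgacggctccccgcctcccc
Cyr61: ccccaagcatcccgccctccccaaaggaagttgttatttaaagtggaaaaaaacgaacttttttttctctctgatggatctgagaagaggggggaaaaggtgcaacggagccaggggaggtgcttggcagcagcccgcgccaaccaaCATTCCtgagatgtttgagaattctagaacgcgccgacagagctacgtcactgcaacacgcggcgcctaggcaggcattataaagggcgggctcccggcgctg
A match is a description of the letters and not a bound site. Of the called genes named by size of difference, 14 had a promoter entry, and 8 of these held TGACG at 1 start or more. The 8 include Procr, which rose, and Vegfa, with a match at start 2 only. The 17.9% of all promoters counts 1 start per gene, so the 2 shares are not alike. Hspa1a, Chd9 and BC002163 were not searched.

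**Figure D3:**
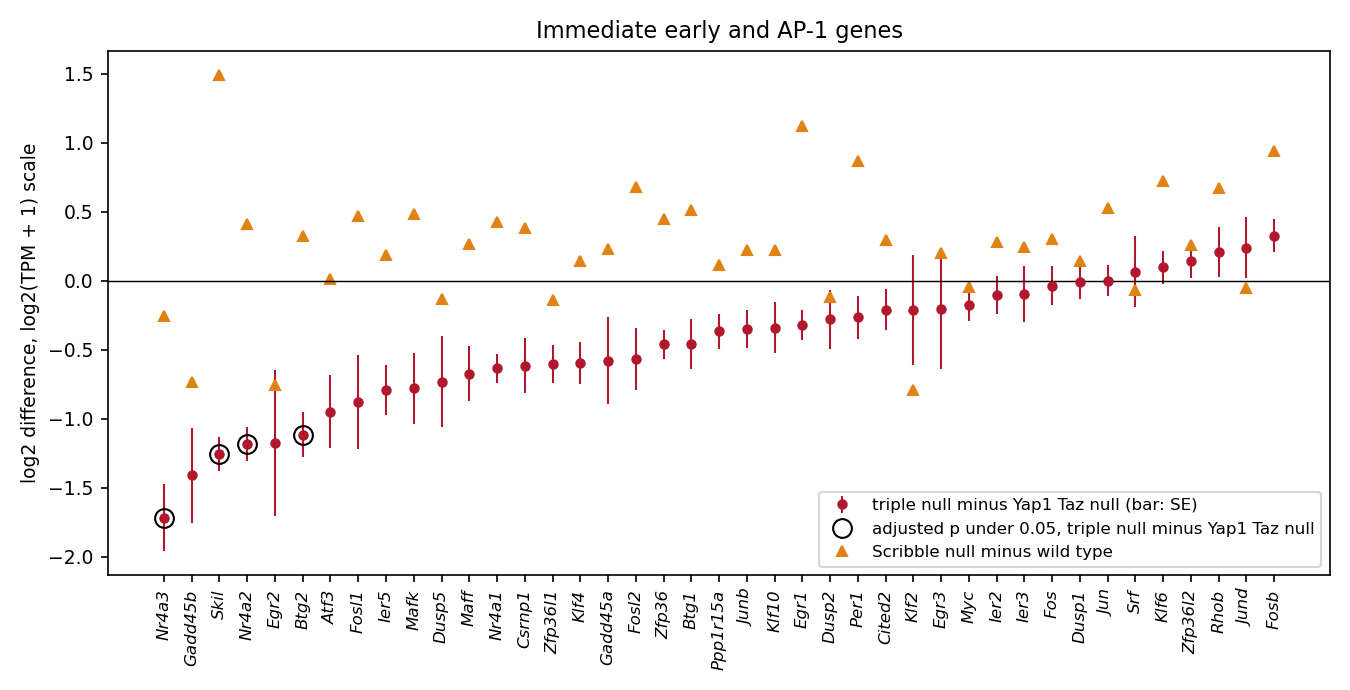
Log2 differences of the 41 immediate early and AP-1 genes on the log2(TPM + 1) scale, sorted by the difference between triple null and Yap1 Taz null (circles, bars are SE), beside the difference between Scribble null and wild type (triangles). Ringed genes, Nr4a3, Skil, Nr4a2 and Btg2, passed the test in the first comparison, and most of the list lies below 0 in the first and above 0 in the second, where the median of all genes was 0.14.

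Without Yap1 and Taz, genes known as their targets could still differ with Scribble. Of 22 measured Yap1 and TAZ target genes Cyr61 fell and none rose, where 0.166% and 0.0863% of all genes were called. Without overlap, 8 were lower and 6 higher in triple null, where 21.6% and 19.1% of all genes were. At an unadjusted p under 0.05, 5 were lower and 1, Myof, higher, where 4.85% and 4.04% of all genes were. The list's median was −0.18. Cyr61 (chromosome 3, 145646976 to 145649981), a secreted matrix protein and the textbook TEAD target, was at 9.85 and 6.50 TPM in triple null, 31.9 and 28.1 TPM in Yap1 Taz null, 25.0 and 21.3 TPM in Scribble null and 30.7 and 35.2 TPM in wild type. Only the triple null libraries were low, with a log2 difference of −1.78 ± 0.24 (adjusted p = 0.0425), whereas Yap1 Taz null cells were at the wild-type level. The next members by p were Thbs1 at −1.79 ± 0.36 (adjusted p = 0.16), Gadd45b at −1.41 ± 0.35 (adjusted p = 0.233) and Tgfb2 at −0.93 ± 0.33 (adjusted p = 0.465), none of which passed. Among 33 Hippo kinases, their partners and TEAD factors no gene was called and the median was 0.07.

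Vegfa (chromosome 17, 46016993 to 46032369), the vascular growth factor that hypoxia induces, was at 42.2 and 35.5 TPM in triple null, 102 and 120.3 TPM in Yap1 Taz null, 76.7 and 89.2 TPM in Scribble null and 60.5 and 82.8 TPM in wild type. Its log2 difference was −1.49 ± 0.20 (adjusted p = 0.0411), and it was the only called gene among 37 of glycolysis and hypoxia, whose median was −0.01. Skil was the only called gene among 35 of TGF-beta and BMP signalling. Of all genes, 0.166% were called lower. Bmpr1a, a BMP receptor, was at 1.98 and 1.82 TPM in triple null and 6.399 and 6.43 TPM in Yap1 Taz null cells, a log2 difference of −1.36 ± 0.30 that did not pass (adjusted p = 0.192).

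Of 29 heat shock proteins and cofactors Hspa1a fell and none rose, where 0.166% and 0.0863% of all genes were called. Hspa1a (chromosome 17, 34969190 to 34972156), an inducible HSP70 chaperone, was at 158 and 163 TPM in triple null, 288 and 289 TPM in Yap1 Taz null, 279.7 and 279.9 TPM in Scribble null and 235 and 218 TPM in wild type. The log2 difference was −0.84 ± 0.11 (adjusted p = 0.0362). Hspa1b, with nearly the same coding sequence, can take its reads, and the sum of the 2 genes was 228 and 239 TPM in triple null and 392 and 395 TPM in Yap1 Taz null cells, a log2 difference of −0.75. Hspb1, a small heat shock protein, was at 55.1 and 40.9 TPM in triple null and 102 and 141 TPM in Yap1 Taz null cells and missed the threshold (−1.32 ± 0.20, adjusted p = 0.0624). The list's median was −0.18, with 7 members lower and 0 higher at an unadjusted p under 0.05, where 4.85% and 4.04% of all genes were.

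Rpl29 (chromosome 9, 106429454 to 106431568), a protein of the large ribosomal subunit, fell alone among 78 cytosolic ribosomal protein genes. It was at 588 and 594 TPM in triple null, 1320 and 1263 TPM in Yap1 Taz null, 1269 and 1698 TPM in Scribble null and 2155 and 2153 TPM in wild type. The log2 difference was −1.13 ± 0.14 (adjusted p = 0.0305). It was −1.10 for the sum over a family of 7 similar genes, of which Rpl29 gave at least 97.2% in each library. In the authors' other deposited table the difference of Rpl29 was −4.27. Of this list 1 gene was called lower, where 0.166% of all genes were. The list's median was 0.08, and 28 members were higher and 5 lower without overlap, where 19.1% and 21.6% of all genes were. Chd9, a chromatin remodeller outside the naming rule, was at 680 and 723 TPM in triple null and 1181 and 1222 TPM in Yap1 Taz null cells (−0.78 ± 0.10, adjusted p = 0.0411). In the authors' other deposited table its log2 difference was 0.006.

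Klk1b22 and Adgrl3 had high values in Yap1 Taz null cells only. Klk1b22 (chromosome 7, 44112673 to 44116922), a serine protease of the kallikrein family, was at 2.24 and 1.52 TPM in triple null, 122 and 172 TPM in Yap1 Taz null, 2.06 and 2.46 TPM in Scribble null and 1.74 and 1.97 TPM in wild type. Its log2 difference of −5.67 ± 0.30 (adjusted p = 0.000259) was the largest of the called genes, and it was called in all 17 other settings. The 23 other Klk1 and Klk1b symbols in the files, relatives that could take its reads, were at most at 0.268 TPM in any library. Adgrl3 (chromosome 5), an adhesion G protein-coupled receptor of the latrophilin family, was at 18.8 and 14.4 TPM in triple null, 55.0 and 58.9 TPM in Yap1 Taz null, 11.4 and 16.3 TPM in Scribble null and 13.5 and 15.01 TPM in wild type (−1.73 ± 0.24, adjusted p = 0.0448). For both genes triple null cells were near the Scribble null and wild-type levels.

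The zinc finger genes that fell were Zfp69 and Zfp990 on chromosome 4 and Zfp949 on chromosome 9. Zfp69 was at 3.92 and 2.33 TPM in triple null, 18.4 and 19.2 TPM in Yap1 Taz null, 10.8 and 9.32 TPM in Scribble null and 2.02 and 3.06 TPM in wild type (−2.29 ± 0.31, adjusted p = 0.0433). Zfp949 was at 19.1 and 15.5 TPM in triple null and 46.4 and 57.6 TPM in Yap1 Taz null cells (−1.53 ± 0.21, adjusted p = 0.0452). Zfp990 was at 3.00 and 4.44 TPM in triple null and 22.2 and 19.9 TPM in Yap1 Taz null cells (−2.24 ± 0.27, adjusted p = 0.0285). It belongs to a cluster of 9 similar genes whose summed level was 101 and 83.8 TPM in triple null and 96.9 and 116 TPM in Yap1 Taz null cells, a log2 difference of −0.20. How reads were shared within the cluster was not tested.

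The rest of the genes that fell have varied roles. Rgs10 (chromosome 7), a GTPase activator that shortens G protein signals, was at 2.18 and 2.33 TPM in triple null, 14.3 and 10.9 TPM in Yap1 Taz null, 4.15 and 3.02 TPM in Scribble null and 7.93 and 7.94 TPM in wild type (−2.06 ± 0.29, adjusted p = 0.048). Sgip1 (chromosome 4), an endocytic adaptor, was at 15.9 and 18.2 TPM in triple null and 51.0 and 39.6 TPM in Yap1 Taz null cells (−1.35 ± 0.20, adjusted p = 0.0499). Ifi44l (chromosome 3), an interferon-induced gene, was at 8.51 and 7.39 TPM in triple null, 25.7 and 26.5 TPM in Yap1 Taz null, 1.29 and 1.09 TPM in Scribble null and 35.2 and 33.4 TPM in wild type (−1.60 ± 0.23, adjusted p = 0.0499). Both groups labelled null for Scribble were below their counterparts, with a difference of −4.01 ± 0.23 (adjusted p = 9.4e-05) between Scribble null and wild type. BC002163, a processed pseudogene of the complex I subunit gene Ndufs5 and outside the naming rule, was listed at 0 in both triple null libraries and at 6.12 and 3.94 TPM in Yap1 Taz null. It entered the test only through the Yap1 Taz null libraries, so the filter set its direction. The sum of both copies was 51.5 and 74.4 TPM in triple null and 66.4 and 66.8 TPM in Yap1 Taz null cells, which overlapped. No called gene lay on chromosome 15, that of Scrib, and the nearest to any targeted gene was Skil, 26.3 Mb from Wwtr1.

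Procr and Rab6b rose. Procr (chromosome 2, 155751117 to 155755471) encodes EPCR, the endothelial protein C receptor, a surface marker of blood stem cells. It was at 149 and 143 TPM in triple null, 61.1 and 70.2 TPM in Yap1 Taz null, 142 and 113 TPM in Scribble null and 100.02 and 101 TPM in wild type. The triple null libraries were the highest of the 8, with a log2 difference of 1.15 ± 0.15 (adjusted p = 0.0411). Rab6b (chromosome 9, 103111787 to 103185276), a small GTPase of Golgi traffic, was at 20.4 and 21.3 TPM in triple null, 4.69 and 5.95 TPM in Yap1 Taz null, 20.1 and 18.5 TPM in Scribble null and 10.7 and 9.89 TPM in wild type (1.79 ± 0.23, adjusted p = 0.0374). In both genes the Yap1 Taz null libraries were the lowest of the 8.

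Procr was the only called gene among 39 stem cell surface markers and receptors, where 0.0863% of all genes were called higher. More of the list lay higher than lower. Without overlap, 18 were higher and 3 lower in triple null, where 19.1% and 21.6% of all genes were. At an unadjusted p under 0.05, 8 were higher and 2 lower, where 4.04% and 4.85% of all genes were, and the list's median was 0.17. Cd27, a TNF receptor family member, was at 301.5 and 328 TPM in triple null and 196 and 230.3 TPM in Yap1 Taz null cells (0.56 ± 0.13, adjusted p = 0.197). Itga2b, which encodes the megakaryocyte integrin CD41, went the other way, with 100.3 and 104 TPM in triple null and 156 and 142 TPM in Yap1 Taz null cells (−0.54 ± 0.12, adjusted p = 0.199). Neither passed the test. Among 49 stem cell transcription factors none was called. Gfi1, a zinc finger repressor that limits stem cell division, came closest, with 12.6 and 10.6 TPM in triple null, 1.63 and 2.09 TPM in Yap1 Taz null, 19.6 and 14.0 TPM in Scribble null and 16.2 and 9.52 TPM in wild type (2.14 ± 0.33, adjusted p = 0.0624). The Yap1 Taz null libraries alone were low for Gfi1.

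No polarity gene was called. Of 28 measured, 6 were higher and 3 lower without overlap, where 19.1% and 21.6% of all genes were. Lrrc1, which encodes LANO, a close relative of Scribble in the same protein family, had the smallest p, with 37.6 and 43.5 TPM in triple null, 16.9 and 19.8 TPM in Yap1 Taz null, 31.2 and 37.5 TPM in Scribble null and 20.7 and 21.2 TPM in wild type. Its difference was 1.10 ± 0.19 between triple null and Yap1 Taz null (adjusted p = 0.0974) and 0.68 ± 0.19 between Scribble null and wild type (adjusted p = 0.13). In both backgrounds the libraries labelled null for Scribble lay above the others, but neither difference passed.

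No cell cycle gene was called, although most of those whose groups did not overlap were lower in triple null cells. Of 53 mitosis and spindle genes 28 were lower and 0 higher without overlap, where 21.6% and 19.1% of all genes were. At an unadjusted p under 0.05, 11 were lower and 0 higher, where 4.85% and 4.04% of all genes were, and the list's median was −0.30, with a range of −0.42 to −0.24 over the other 17 settings. Ccnb1, cyclin B1, was at 21.3 and 25.4 TPM in triple null and 40.7 and 44.7 TPM in Yap1 Taz null cells (−0.85 ± 0.20, adjusted p = 0.225). Among 55 DNA replication and G1/S genes 24 were lower and 8 higher without overlap, against the same 21.6% and 19.1% of all genes, with a median of −0.11. In bulk libraries of sorted cells, fewer cycling cells and less of these transcripts per cell cannot be told apart. Scribble null cells also had a negative median of −0.45 for mitosis genes against wild type, where all genes had a median of 0.14.

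In the other pathways described no gene was called. Nuclear oxidative phosphorylation genes had a median of 0.14 over 73 members with none called, where Scribble null cells had −0.38 against wild type. Sterol synthesis and lipoprotein receptor genes had the highest median of the pathway lists, 0.28 over 33 members with none called, and Insig1, which retains the sterol sensor in the endoplasmic reticulum, was at 88.7 and 89.2 TPM in triple null and 61.7 and 61.5 TPM in Yap1 Taz null cells (0.52 ± 0.14, adjusted p = 0.287). NF-kB genes and inflammatory targets had a median of −0.09 over 35 members with none called. The chemokine Cxcl2 was at 2.12 and 1.65 TPM in triple null and 29.7 and 17.1 TPM in Yap1 Taz null cells (−3.04 ± 0.53, adjusted p = 0.0966). Birc3, an inhibitor of apoptosis, was at 60.2 and 53.6 TPM in triple null and 111 and 109.97 TPM in Yap1 Taz null cells (−0.94 ± 0.16, adjusted p = 0.0848). Neither passed the test.

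**Figure D4:**
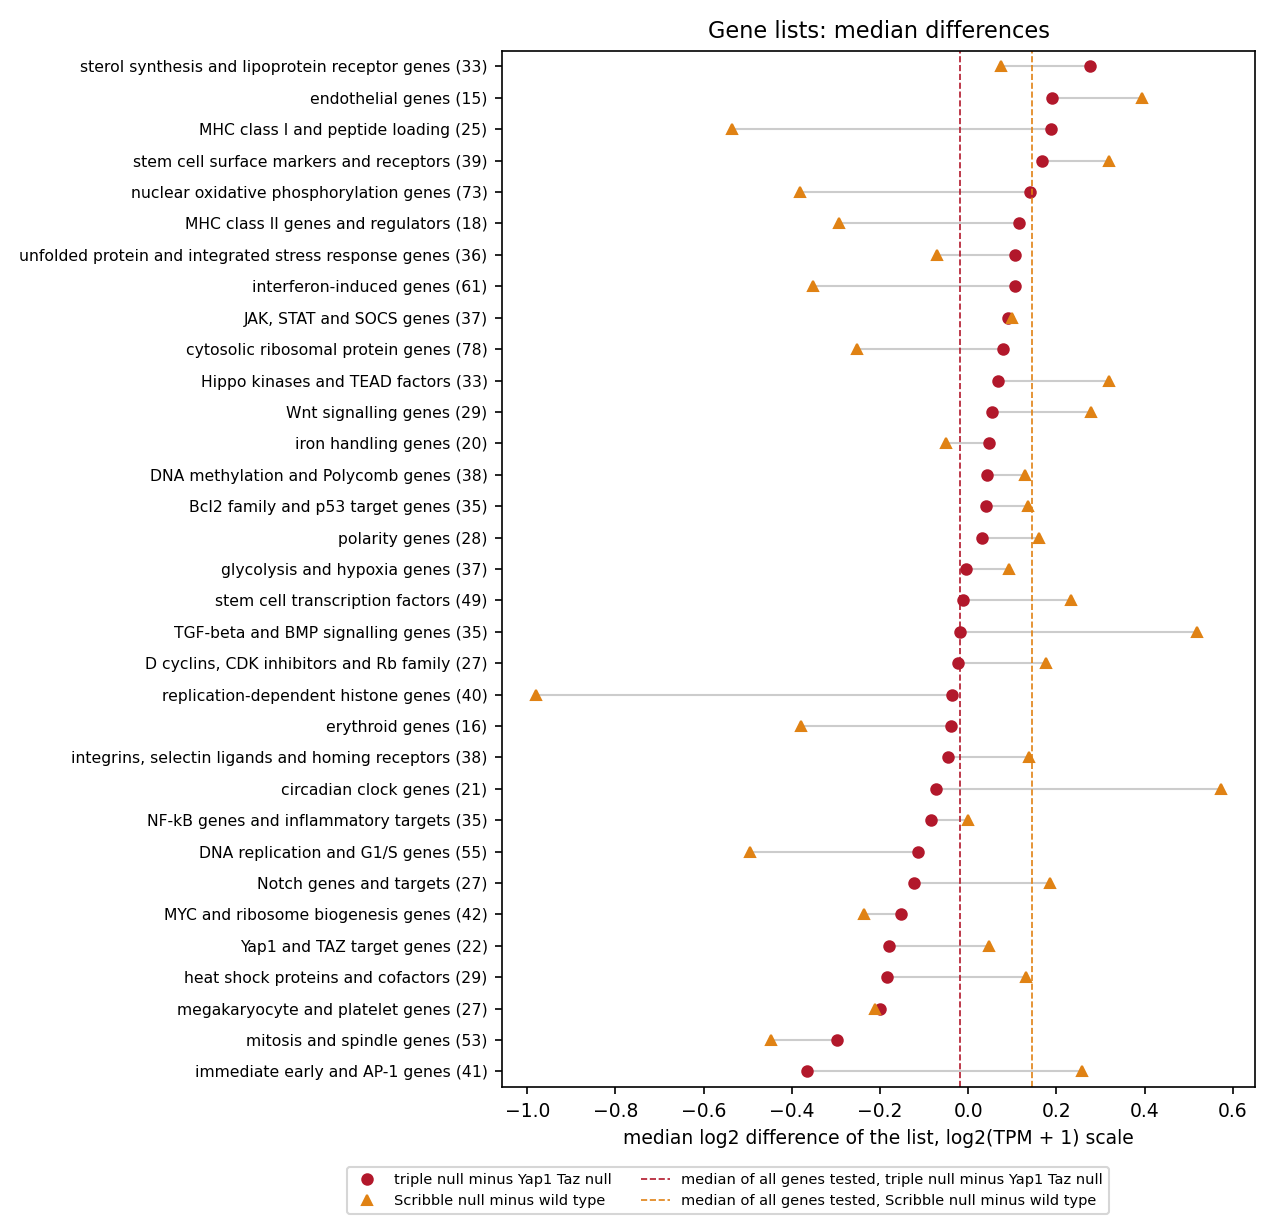
Median log2 difference of each gene list shown, each with at least 15 measured members, for triple null minus Yap1 Taz null (circles) and Scribble null minus wild type (triangles), with the number of members in brackets and the medians of all genes as dashed lines. Immediate early and mitosis genes have the lowest medians in the first comparison, −0.37 and −0.30, and in the second the medians are 0.26 and −0.45.

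For 60 genes the difference between triple null and Yap1 Taz null was unequal to that between Scribble null and wild type. This comparison also holds the Yap1 Taz null libraries, in which Y-linked genes were low. A difference of sex between the animals therefore cannot be told apart from the labelled genotypes here either. Across the 12464 genes, the difference between triple null and Yap1 Taz null correlated at −0.01 with that between Scribble null and wild type (Pearson's r over genes, no shared library), and 47.9% of genes had the same sign. Scribble null against wild type gave 153 called genes, 79 higher and 74 lower, where 1.37% of all genes were called, 0.657% higher and 0.717% lower. The difference between the 2 differences, tested in the same fit, was called for these 60, 28 above and 32 below 0, where 0.664% of all genes were called, 0.379% above and 0.286% below 0, and its median over all genes was −0.15. With a scaling by median ratios that moved this median to 0.04, the split was 36 above and 17 below 0, and that of Scribble null against wild type 45 higher and 164 lower. Without 1 library, the 60 became between 19, without wild type 1, and 92, without Scribble null 2, with 23 to 34 in the other 6 fits.

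The 32 genes below 0 were chosen for a difference of differences below 0, so the counts of their directions describe that choice. In 31 of them both Scribble null libraries were above both wild-type libraries, where 33.6% of all genes were, and in 31 both triple null libraries were below both Yap1 Taz null libraries, where 21.6% were. Of the 32, 12 are among the genes that fell in triple null. The 32 include 6 of the 41 immediate early genes and 3 of the 29 heat shock genes, where 0.286% of all genes were called below 0. Skil departed by −2.75 ± 0.18 (adjusted p = 0.000393), Nr4a2 by −1.59 ± 0.17 (adjusted p = 0.0058) and Hsph1, an HSP110 chaperone, by −1.66 ± 0.15 (adjusted p = 0.00211). Egr1, a transcription factor of the immediate early class named after its values were seen, was at 753 and 747 TPM in triple null, 871 and 1009 TPM in Yap1 Taz null, 1074 and 1146 TPM in Scribble null and 504.7 and 515 TPM in wild type. Ncoa4 (chromosome 14), the receptor that delivers ferritin for degradation, was at 77.8 and 107 TPM in triple null, 163 and 171 TPM in Yap1 Taz null, 152 and 145 TPM in Scribble null and 27.3 and 43.8 TPM in wild type (−2.94 ± 0.33, adjusted p = 0.00693). For Skil, Egr1 and Ncoa4 the Scribble null and the Yap1 Taz null libraries lay above wild type, and the triple null libraries lay nearer to it.

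The 28 genes above 0 were mostly those with the highest level in wild type, where both libraries were above all 6 others for 25 of the 28. A high wild-type level raises the difference of differences, so this count partly describes how they were chosen. The share of all genes with this pattern was not counted. Scribble null was below wild type in both libraries for all 28, where 15.9% of all genes were, and triple null was above Yap1 Taz null in 17, where 19.1% were, which again describes how they were chosen. Of the 28, 1, Ifi44l, was called between triple null and Yap1 Taz null. The 28 include 12 of 61 interferon-induced genes and 3 of 18 MHC class II genes, where 0.379% of all genes were called above 0. Also among them are 4 of 25 MHC class I and peptide loading genes, a list that shares Psmb10 with the interferon-induced one. H2-Aa (chromosome 17, 34282744 to 34287823), a chain of the class II molecule, was at 309.7 and 304 TPM in triple null, 234 and 258 TPM in Yap1 Taz null, 127 and 105 TPM in Scribble null and 1402 and 1507 TPM in wild type. All 3 null groups were far below wild type, and the difference of triple null from Yap1 Taz null was 0.32 ± 0.13 (adjusted p = 0.506). Cd74, the class II invariant chain, was at 284 and 289 TPM in triple null, 105 and 168 TPM in Yap1 Taz null, 106 and 113 TPM in Scribble null and 674 and 768 TPM in wild type. Its triple null libraries lay above both other null groups, with a difference of 1.11 ± 0.20 from Yap1 Taz null that did not pass (adjusted p = 0.112).

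No gene of the interferon-induced list, which does not hold Ifi44l, was called between triple null and Yap1 Taz null. Of the 61, 18 were higher and 13 lower without overlap in triple null, where 19.1% and 21.6% of all genes were. At an unadjusted p under 0.05, 9 were higher and 4 lower, where 4.04% and 4.85% of all genes were, and the list's median was 0.11. Tgtp1, an interferon-induced GTPase, was at 131 and 154 TPM in triple null, 103 and 85.01 TPM in Yap1 Taz null, 68.05 and 72.1 TPM in Scribble null and 226 and 228 TPM in wild type (0.59 ± 0.15, adjusted p = 0.248), and its near copy Tgtp2 can take its reads. Of the 25 MHC class I and peptide loading genes, 12 were higher and 2 lower without overlap, where 19.1% and 21.6% of all genes were, with a median of 0.19. Psmb10, a catalytic subunit of the immunoproteasome, was at 159 and 142 TPM in triple null, 105 and 102 TPM in Yap1 Taz null, 93.3 and 95.6 TPM in Scribble null and 200.1 and 179 TPM in wild type (0.54 ± 0.13, adjusted p = 0.225).

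**Figure D5:**
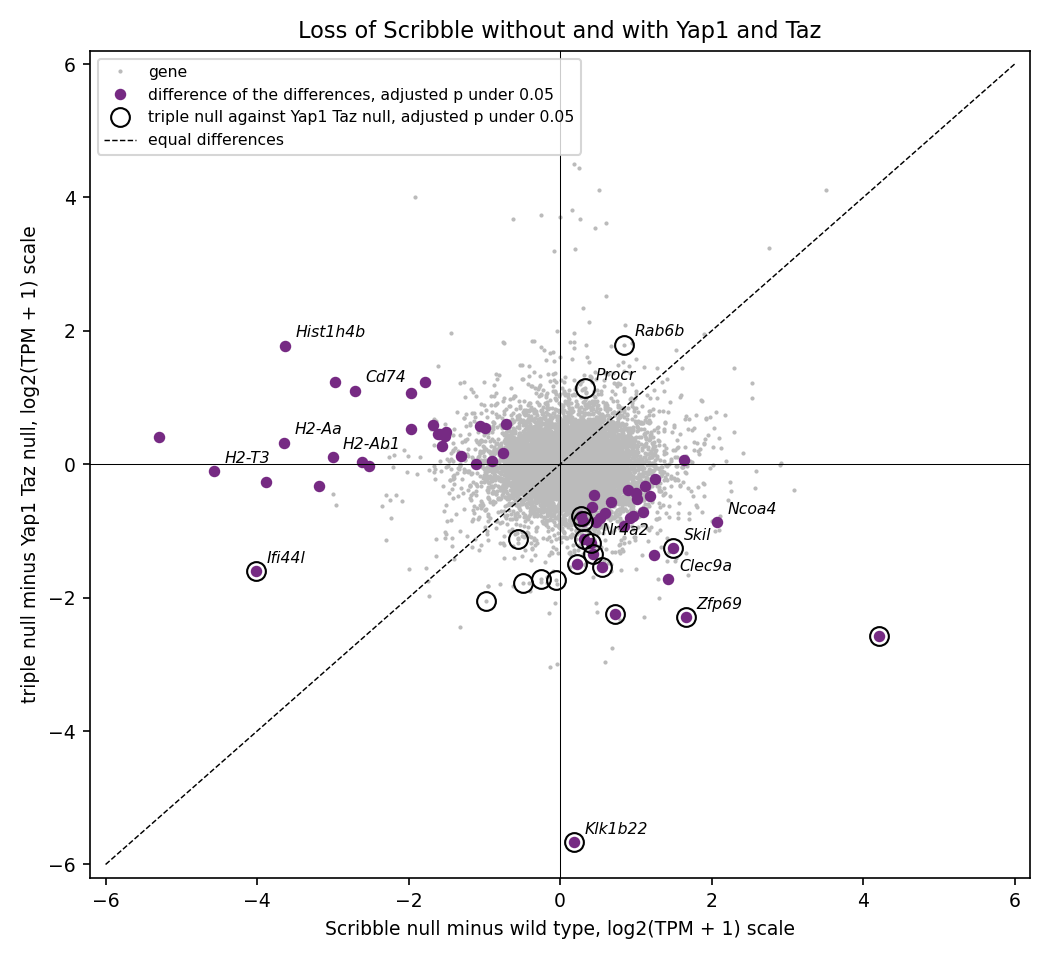
Log2 difference of each of the 12464 genes for triple null minus Yap1 Taz null (vertical) and Scribble null minus wild type (horizontal), on the log2(TPM + 1) scale. Filled points are the 60 genes whose 2 differences were unequal and rings the 20 genes called between triple null and Yap1 Taz null, and the dashed line marks equal differences. H2-Aa and H2-Ab1 lie far left and near 0 on the vertical axis, and Skil, Zfp69 and Ncoa4 lie at the lower right.

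Markers of other blood and marrow cells were summed to see what else moved with the groups. The 29 monocyte, macrophage and dendritic genes summed to 1096 and 1015 TPM in triple null and 743 and 822 TPM in Yap1 Taz null cells, and Cd74 and H2-Aa are among them. The 27 granulocyte and myeloid progenitor genes summed to 1225 and 1136 TPM in triple null and 860.3 and 857 TPM in Yap1 Taz null. Of the 27, 11 were below 1 TPM in all 8 libraries, with S100a8, Mmp8, Fcnb and Ly6g at 0. This sum includes Calr, which is also on the MHC class I and peptide loading list. Megakaryocyte and platelet genes summed to 2136 and 2156 TPM in triple null and 2202 and 2299 TPM in Yap1 Taz null, and the 23 endothelial genes to 886 and 826 TPM in triple null and 767 and 693 TPM in Yap1 Taz null, with Lyve1 at 0. No gene of these 4 lists was called between triple null and Yap1 Taz null cells, and the part of other cells in the results was not tested.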

How the data were processed

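RNA from sorted bone marrow stem cells was amplified with Ovation RNA-Seq v2 and made into Nextera XT libraries, per the labels' protocols. The authors deposited 1 table of TPM values per library, per the file headers, each summing to 1000000, so sequencing depth is unknown and no counting interval can be given. The submitters' processing notes name TopHat and mm10; the quantifier is not given in the sources used here. The authors deposited a second table, which holds a linear signal in an unnamed unit and which served only as an alternative.

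Here log2(TPM + 1) values of all 8 libraries were fitted with limma 3.58.1 in R 4.3.3, with a mean per group, a mean-variance trend and moderated variances (4 residual and 4.103 prior degrees of freedom), two-sided, checked on simulated data. A log2 difference on this scale understates the change of low genes. Symbols were matched to GENCODE M21 (mm10) for 98.473% of tested genes. Of the 12464 members, 76 passed the filter only through both triple null libraries and 111 only through both Yap1 Taz null libraries; Sbk2 lay just inside it, with a second highest value of 1.0004 TPM, and Siglecf just outside, with 0.9998 TPM. Near-identical copies, and wider families of similar genes at 90% identity or more over at least 50% of the length, were found with BLAST 2.17.0.

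Up to 15 called protein-coding genes per direction were named by size of difference, 6 for the difference of differences and 4 by p from each of the gene lists; some results that these rules select are not reported here. Members and lists were chosen with earlier results of these data known, so they give no independent support. List counts stand beside those of all genes, with no test of the list. Replicate numbers did not pair the libraries: deviations of same-numbered libraries correlated at −0.054 to 0.021.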

Additional observations from a re-analysis of the deposited data

Results flagged for a closer look

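The difference between triple null and Yap1 Taz null was unequal to that between Scribble null and wild type, by the test of the difference of the 2 differences, for 60 of the 12464 genes, and 5 with large values above 0 and 6 below 0 are given here on the log2(TPM + 1) scale. Above 0 were Hist1h4b (5.41 ± 0.70, adjusted p = 0.0146), H2-T3 (4.46 ± 0.64, adjusted p = 0.0225), H2-Aa (3.97 ± 0.18, adjusted p = 8.21e-05), Cd74 (3.81 ± 0.29, adjusted p = 0.000632) and H2-Ab1 (3.11 ± 0.21, adjusted p = 0.000393). Below 0 were Klk1b22 (−5.86 ± 0.42, adjusted p = 0.000477), Zfp69 (−3.95 ± 0.44, adjusted p = 0.00688), Clec9a (−3.15 ± 0.43, adjusted p = 0.0181), Zfp990 (−2.97 ± 0.38, adjusted p = 0.0137), Ncoa4 (−2.94 ± 0.33, adjusted p = 0.00693) and Skil (−2.75 ± 0.18, adjusted p = 0.000393).

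The genes named above 0 were each higher in both wild-type libraries than in the 6 others. H2-T3, a nonclassical class I gene, was at 2.97 and 5.46 TPM in triple null, 2.91 and 6.60 TPM in Yap1 Taz null, 6.02 and 2.72 TPM in Scribble null and 140 and 104 TPM in wild type. Hist1h4b, a histone H4 gene, was at 2.69 and 2.20 TPM in triple null and listed at 0 in both Yap1 Taz null libraries. It was at 0 and 0.502 TPM in Scribble null and at 24.2 and 8.11 TPM in wild type. It belongs to a family of 12 similar genes between which reads can be shared. The family summed to 2085.5 and 1966 TPM in triple null and 2193 and 1933 TPM in Yap1 Taz null. In Scribble null the sum was 565 and 1396 TPM, and in wild type 2213 and 2172 TPM. A difference of differences was not tested for the sum. H2-Ab1, a class II chain, was at 155 and 166 TPM in triple null, 139 and 159 TPM in Yap1 Taz null, 71.2 and 83.9 TPM in Scribble null and 567 and 693 TPM in wild type. For none of these 3 was the difference between triple null and Yap1 Taz null called, and Hist1h4b entered the test only through the triple null libraries. Both wild-type libraries were above all 6 others in 25 of the 28 genes above 0, a count that partly describes how the 28 were chosen.

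Clec9a, a receptor of dendritic cells, was at 3.40 and 3.58 TPM in triple null, 14.1 and 13.5 TPM in Yap1 Taz null, 8.61 and 11.7 TPM in Scribble null and 2.43 and 3.89 TPM in wild type. Its triple null libraries lay with wild type, below all 4 libraries of the other null groups.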

How the results depend on the processing

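The count of 20 genes called between triple null and Yap1 Taz null was 4 without a filter on low values, 12 with median-ratio scaling, 8 in the authors' other deposited table and 2 with the 4 libraries of the comparison alone, and it ranged from 1 to 10 when 1 library was left out; the cause was not tested beyond the smaller number of libraries in the last. The difference of differences, called for 60 genes, gave 31 without a filter and 36 in the other table, and 19 to 92 without 1 library. Scribble null against wild type, called for 153, gave 66 without a filter, 80 in the other table and 21 to 174 without 1 library. Other pseudocounts, a filter of 5 TPM and quantile normalization kept each of these 3 counts within 1.5 times. Klk1b22 was called in 17 of 17 alternatives, Skil in 12, Nr4a2 in 11, Rpl29 in 9 and Hspa1a in 8. At the other end, Btg2 and Ifi44l were called in 1 of 17, Sgip1 in 2, and Cyr61, Rgs10 and Zfp949 in 4. In the other table Chd9 had a log2 difference of 0.006 and Zfp990 one of −1.45. With 1 library left out, the uncalled differences of the targeted genes lay between −0.018 and 0.841 for Scrib and between −0.258 and 0.462 for Wwtr1, both turned without triple null replicate 1, and between −1.205 and 0.083 for Yap1, turned without Yap1 Taz null replicate 2. With the replicate number as a block the counts were 3 (Nr4a2, Klk1b22 and Skil), 38 and 70, although the numbers do not pair the libraries. TPM keeps no depth, so how far depth limits low genes is unknown.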
